A study of Mus musculus with 6 samples.

Results

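The Krüppel-like factor (KLF) family was examined in cytotoxic T lymphocytes (CTL) in which 1 of its members, KLF2, was expressed from a retrovirus. The members described are Klf2, Klf3, Klf6, Klf7, Klf9, Klf10, Klf11, Klf12, Klf13 and Klf16, and every probe set annotated to 1 of these genes and to no other gene was taken, whatever its value. This gave 35 of the 45037 probe sets tested, and 10 of the 18193 genes that these arrays name. RNA of GFP-KLF2 transduced CTL, which carry a fusion of GFP and KLF2, was compared with RNA of evGFP transduced CTL, which carry the empty GFP vector, with 3 biological replicates and so 3 arrays per group.

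Both groups came from C57BL/6 mice aged 8 to 12 weeks that carry the P14 T cell receptor transgene, so that most of their CD8 T cells recognise 1 peptide of the virus LCMV. Splenocytes of both groups received that peptide for 48 hours, T cells were transduced 18 hours after its addition, and IL-2 was then given for 48 hours, up to day 4, as the labels state it, while a legend of the study gives a longer IL-2 culture for this comparison. GFP positive cells were purified by flow cytometry before RNA was prepared, and 250 ng of total RNA was labelled for each Affymetrix mouse 3′ expression array. Whether replicates came from separate mice is not given in the sources used here, nor is the number of retroviral integrations per cell. KLF2 in the GFP-KLF2 group is a fusion protein expressed from a retrovirus, and the study states that the construct lacks the 3′ end of the Klf2 transcript, to which the array's probes bind. The only Klf2 probe set therefore reads the cells' own gene and not the construct, and the arrays hold no check of the construct itself. Apart from the arrays, the study measured KLF2 mRNA in sorted GFP positive cells by qRT-PCR. It reports levels with GFP-KLF2 like those of naive T cells.

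KLF proteins are transcription factors with a conserved set of zinc fingers at the carboxy terminus, which bind CACCC and GC-rich boxes in promoters and enhancers, so that members can compete for the same sites. What they do there depends on the amino terminus. KLF3, KLF8 and KLF12 carry a motif that recruits the corepressor CtBP, while KLF9, KLF10, KLF11, KLF13 and KLF16 recruit Sin3 and its histone deacetylases. KLF2, KLF6 and KLF7 can activate transcription. KLF2 is abundant in naive T cells, where it drives expression of the exit receptor S1P1 and of L-selectin, and it is lost after strong stimulation of the T cell receptor.

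Promoter sequence is shown for 4 members: Klf2, the gene that was supplied, Klf3 and Klf9, which rose by most of their probe sets, and Klf7, whose RNA did not pass the test. Each is the 250 bases 5′ of the annotated start, from RefSeq with build GRCm38.p6 and read on the gene's own strand. They lie at chr8:72318812-72319061 (Klf2, plus strand), chr5:64803271-64803520 (Klf3, plus strand), chr1:64121390-64121639 (Klf7, minus strand) and chr19:23140976-23141225 (Klf9, plus strand). Capitals mark the KLF box CACCC or its reverse complement GGGTG, the FOXO core (TGTTTAC, here on the other strand as GTAAACA) in Klf9 and the MEF2 palindrome in Klf2.
Klf2: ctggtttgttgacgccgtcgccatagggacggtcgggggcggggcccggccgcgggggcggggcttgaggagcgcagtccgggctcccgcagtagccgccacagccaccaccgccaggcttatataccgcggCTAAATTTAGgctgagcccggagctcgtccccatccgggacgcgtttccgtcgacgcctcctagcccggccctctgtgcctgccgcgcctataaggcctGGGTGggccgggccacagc
Klf3: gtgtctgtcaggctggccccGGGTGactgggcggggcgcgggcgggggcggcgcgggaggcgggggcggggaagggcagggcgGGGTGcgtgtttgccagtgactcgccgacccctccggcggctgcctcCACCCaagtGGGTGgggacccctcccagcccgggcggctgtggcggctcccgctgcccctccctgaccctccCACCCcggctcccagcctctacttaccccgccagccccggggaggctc
Klf7: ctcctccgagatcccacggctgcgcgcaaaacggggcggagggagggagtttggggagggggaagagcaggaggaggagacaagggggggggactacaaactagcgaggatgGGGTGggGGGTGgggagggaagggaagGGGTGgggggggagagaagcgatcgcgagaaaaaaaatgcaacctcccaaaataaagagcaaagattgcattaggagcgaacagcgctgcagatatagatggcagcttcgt
Klf9: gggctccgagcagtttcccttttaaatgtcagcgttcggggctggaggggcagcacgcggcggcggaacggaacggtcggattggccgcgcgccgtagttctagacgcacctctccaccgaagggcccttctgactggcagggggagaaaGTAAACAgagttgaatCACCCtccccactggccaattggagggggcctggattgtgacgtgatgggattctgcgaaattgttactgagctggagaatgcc

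Of the 10 members, 8 matched a promoter entry, and Klf10 and Klf16 did not. Both strands were searched, and matches of different motifs were counted even where they overlapped. CACCC occurred 5 times before Klf3, 3 times before Klf7 and 1 time each before Klf2, Klf9, Klf12 and Klf13, with no match before Klf6 and Klf11. Klf3 thus had the most CACCC matches of the 8, followed by Klf7, whose RNA did not pass the test. How many promoter windows hold as many matches as that of Klf3 is not given here. The GC box GGGCGG occurred 6 times before Klf3, 4 before Klf11, 3 before Klf13, 2 before Klf2 and 1 time each before Klf6 and Klf7. Among all 32851 promoter windows of this length, 52.0% held CACCC and 32.7% held GGGCGG, so a match by itself sets no member apart. The FOXO core, present in 3.17% of windows, was found before Klf9, its first base at -100, and the MEF2 palindrome, present in 0.508% of windows, before Klf2, its first base at -118. The Klf2 window shown held no FOXO core.

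The arrays of both groups had like distributions after the authors' normalization, with lower quartiles of 4.18 to 4.25 log2 units. Pearson's r over all probe sets was 0.993 to 0.996 between arrays of a group and 0.982 to 0.990 between groups. The Actb control probe sets at the 3′ and 5′ ends, a measure of RNA integrity and labelling, differed by 0.077 to 0.084 log2 units in GFP-KLF2 CTL and 0.111 to 0.121 in evGFP CTL, and so separated the groups. For Gapdh the groups overlapped, at -0.17 to -0.14 in GFP-KLF2 CTL and -0.18 to -0.12 in evGFP CTL. The part of this difference in the results was not tested. The CD8 T cell markers Cd3d, Cd3e, Cd8a, Cd8b1, Cd2 and Thy1 summed to 44666 to 47390 intensity units in GFP-KLF2 CTL and 40971 to 43298 in evGFP CTL, with Cd8b1 passing the test at a log2 fold change of 0.45. The 4 B cell markers measured summed to 232 to 360 intensity units in GFP-KLF2 CTL and 247 to 263 in evGFP CTL, and the 5 myeloid markers to 220 to 242 in GFP-KLF2 CTL and 198 to 223 in evGFP CTL, and these markers did not pass.

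RNA of most KLF members was higher in GFP-KLF2 CTL. Of the 35 probe sets, 23 rose (65.7%), and the other 12 did not pass the test, which was limma's moderated test with an adjusted p under 0.046 over all probe sets. With the threshold as the methods print it, an adjusted p under 0.00046, the counts were 0 probe sets and 0 members, and with a change of at least 2-fold as a further condition 14 probe sets and 4 members. Over all probe sets tested 4.76% rose and 6.39% fell. At unadjusted p under 0.05 limma placed 25 member probe sets higher and none lower, and with the replicate number as a block it placed 1, that of Klf2, lower. The shares of all probe sets at that unadjusted level, or with the 2-fold condition, are not given here, so those counts stand without a background. The groups did not overlap for 25 of the 35 probe sets, against 29.7% of all probe sets. With 1 value per gene, from its brightest probe set, 7 of the 10 members rose, and Klf2, Klf7 and Klf12 did not pass, beside 6.22% of all genes that rose and 8.35% that fell. Counting any probe set, 8 members had at least 1 that rose, Klf12 being the addition, beside 7.01% of all genes, though most genes have fewer probe sets than Klf3, Klf9 or Klf12 and so fewer chances to pass. The median log2 fold change was 0.74 over member probe sets and 0.65 over members, against -0.01 over all probe sets and -0.01 over all genes. In these RNA preparations from sorted populations, more cells with a transcript and more transcript per cell cannot be told apart.

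**Figure D1:**
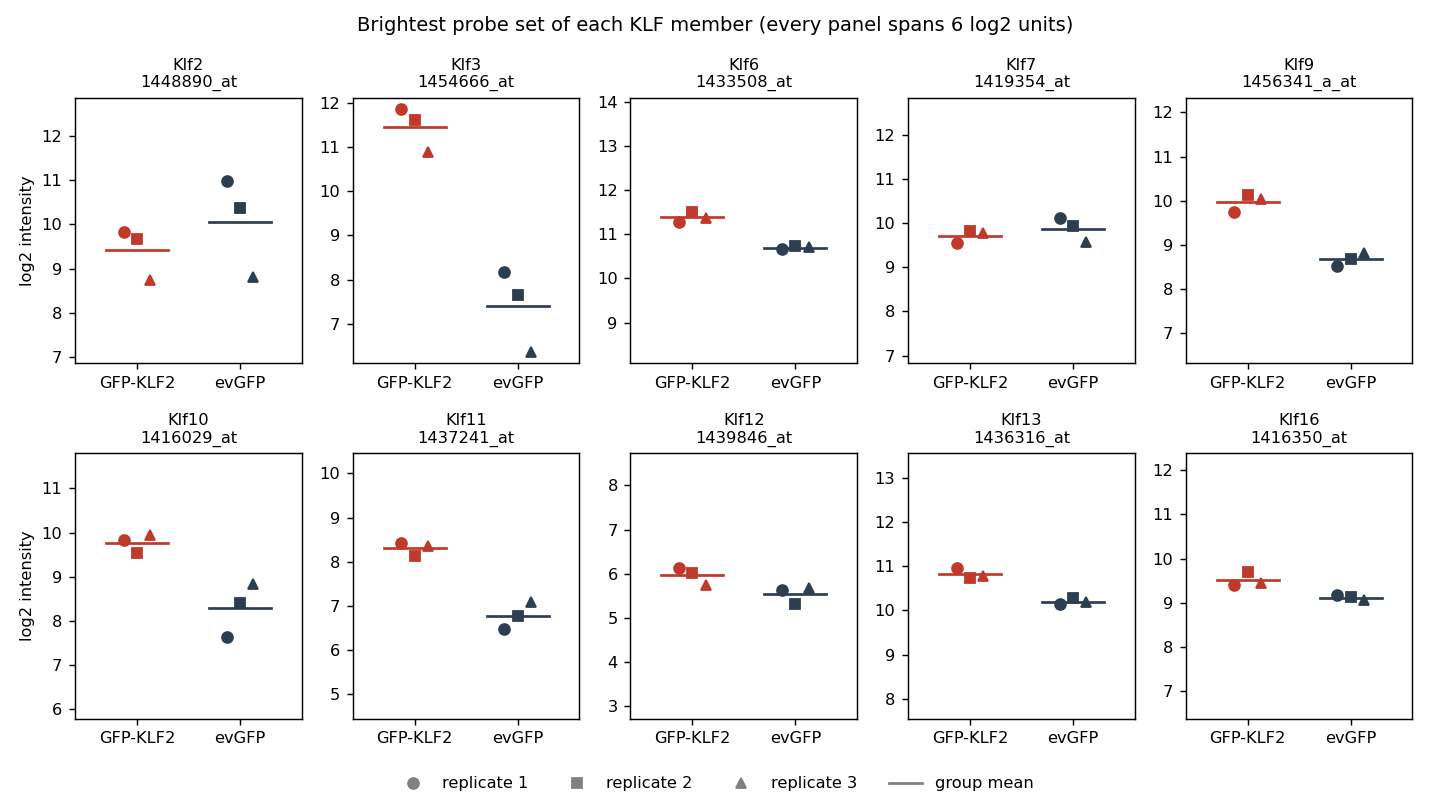
Log2 intensity of the brightest probe set of each KLF member on the 6 arrays, with GFP-KLF2 CTL left and evGFP CTL right in each panel. Symbols give the replicate number, lines the group mean (n = 3), and every panel spans the same number of log2 units. Klf3 had a mean of 11.45 in GFP-KLF2 CTL and 7.39 in evGFP CTL, while Klf2 and Klf7 overlapped between groups.

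Klf2, read here from the cells' own gene, measured 9.83, 9.67 and 8.74 log2 units in GFP-KLF2 CTL (replicates 1, 2 and 3), against 10.99, 10.37 and 8.80 in evGFP CTL. Replicate 3 was the lowest array of each group, and the groups overlapped. The means were 9.41 ± 0.59 in GFP-KLF2 CTL and 10.05 ± 1.13 in evGFP CTL (SD, n = 3 each), a log2 fold change of -0.64 (SE 0.54, 95% confidence interval -1.90 to 0.62, limma adjusted p = 0.552). Within pairs of arrays with the same replicate number the difference was -1.16, -0.71 and -0.06, lower in all 3. With the replicate number as a block the log2 fold change of -0.64 had an SE of 0.19 and a 95% confidence interval of -1.11 to -0.17, and it did not pass after adjustment (limma adjusted p = 0.0750). The evGFP arrays spread more widely than the GFP-KLF2 arrays, and the estimate lay between -1.27 and -0.18 as each array was left out in turn.

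The genes whose brightest probe set followed Klf2 most closely over the 6 arrays, out of 10510 genes with a mean of at least 6 log2 units, were Ddx54 (Pearson's r = 0.992), Gstt1 (0.988), Lingo1 (0.985), Ptpn14 (0.984) and Rnf7 (0.977). These r are a description over 6 arrays that share group and replicate number. Gstt1, a glutathione transferase, had 8.85, 8.71 and 7.90 log2 units in GFP-KLF2 CTL, against 9.54, 8.98 and 7.98 in evGFP CTL. Like Klf2 it was lowest in replicate 3 of each group. The 5 genes, like Klf2, did not pass the test, with limma adjusted p of 0.471 to 0.844. Both likenesses follow in part from the choice of these genes by their r with Klf2 on the same arrays.

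Klf3, a CtBP-binding repressor, had the largest fold change among the members' brightest probe sets. Its brightest probe set, 1454666_at, measured 11.85, 11.62 and 10.89 log2 units in GFP-KLF2 CTL, against 8.16, 7.64 and 6.37 in evGFP CTL. The lowest GFP-KLF2 array lay well above the highest evGFP array, and replicate 3 was again the lowest of each group, as for Klf2. The means of 11.45 ± 0.50 in GFP-KLF2 CTL and 7.39 ± 0.92 in evGFP CTL (SD, n = 3 each) gave a log2 fold change of 4.06 (SE 0.45, 95% confidence interval 3.02 to 5.10, limma adjusted p = 0.00265), or 16.7-fold. The difference within pairs was 3.69, 3.98 and 4.52.

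The other Klf3 probe sets differed in how far they moved. Probe set 1421604_a_at measured 10.34, 9.88 and 9.26 log2 units in GFP-KLF2 CTL, against 6.79, 6.05 and 4.90 in evGFP CTL, a log2 fold change of 3.91 (SE 0.47, limma adjusted p = 0.00335). Probe set 1429360_at measured 10.26, 9.94 and 9.35 in GFP-KLF2 CTL, against 7.06, 6.80 and 5.96 in evGFP CTL, a log2 fold change of 3.24 (SE 0.32, limma adjusted p = 0.00179). These 2 and the brightest probe set share the order of arrays in each group, with replicate 1 highest and replicate 3 lowest. In evGFP CTL 1431630_a_at was brighter than 1454666_at, with means of 7.84 and 7.39. Probe set 1431630_a_at measured 9.49, 9.02 and 8.82 in GFP-KLF2 CTL, against 7.83, 7.93 and 7.77 in evGFP CTL, a log2 fold change of 1.27 (SE 0.16, limma adjusted p = 0.00436). The rises of 1441200_at and 1442920_at were nearer to this one, with log2 fold changes of 1.17 (limma adjusted p = 0.00141) and 1.33 (limma adjusted p = 0.00900). Only 1458487_at of the 7 did not pass, at 6.56, 5.92 and 5.96 log2 units in GFP-KLF2 CTL, against 6.10, 5.93 and 5.75 in evGFP CTL, a log2 fold change of 0.22 (95% confidence interval -0.20 to 0.64, limma adjusted p = 0.542).

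Whether probe sets of 1 gene moved by different amounts was tested on the log2 difference between the brightest probe set and each other probe set of that gene, taken within every array and then compared between groups. Members gave 25 such differences, and for 14 of them the groups did not overlap, against 22.7% of the 16752 differences over all genes. The smallest p that the 2-sided exact permutation test allows with 3 arrays per group is 0.1, so that test cannot pass, and limma was fitted over all 16752 differences instead, where 2.38% passed. Of the 25, 8 passed. This limma fit was chosen after the values had been seen, as was its repeat with a pseudocount of 16, in which 10 of the 25 passed. The share of all differences that passed with the pseudocount is not given here. For Klf3, 4 of 6 differences passed: the brightest probe set rose more than 1431630_a_at by 2.79 log2 units (SE 0.40, limma adjusted p = 0.0179), more than 1441200_at by 2.89 (adjusted p = 0.0268), more than 1442920_at by 2.73 (adjusted p = 0.0322) and more than 1458487_at by 3.84 (adjusted p = 0.00571). Against 1429360_at the difference was 0.82 (adjusted p = 0.0583, and 0.0256 with the pseudocount), and against 1421604_a_at 0.15 (adjusted p = 0.513). The reference, 1454666_at, is the brightest by its mean over all 6 arrays. In evGFP CTL alone 1431630_a_at was brighter (mean 7.84 against 7.39), so its smaller rise is partly built into this choice. Probe set 1442920_at had a mean of 4.75 in evGFP CTL and 1458487_at of 5.93, against array medians of 5.64 to 5.67. The size of the difference from 1442920_at, which lay below these medians, is therefore not well measured. Probe set 1458487_at lay only just above them, so its difference is also read with caution. That difference was 3.84, and 3.74 with the pseudocount. The annotation used here does not say which part of the transcript each probe set reads.

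**Figure D2:**
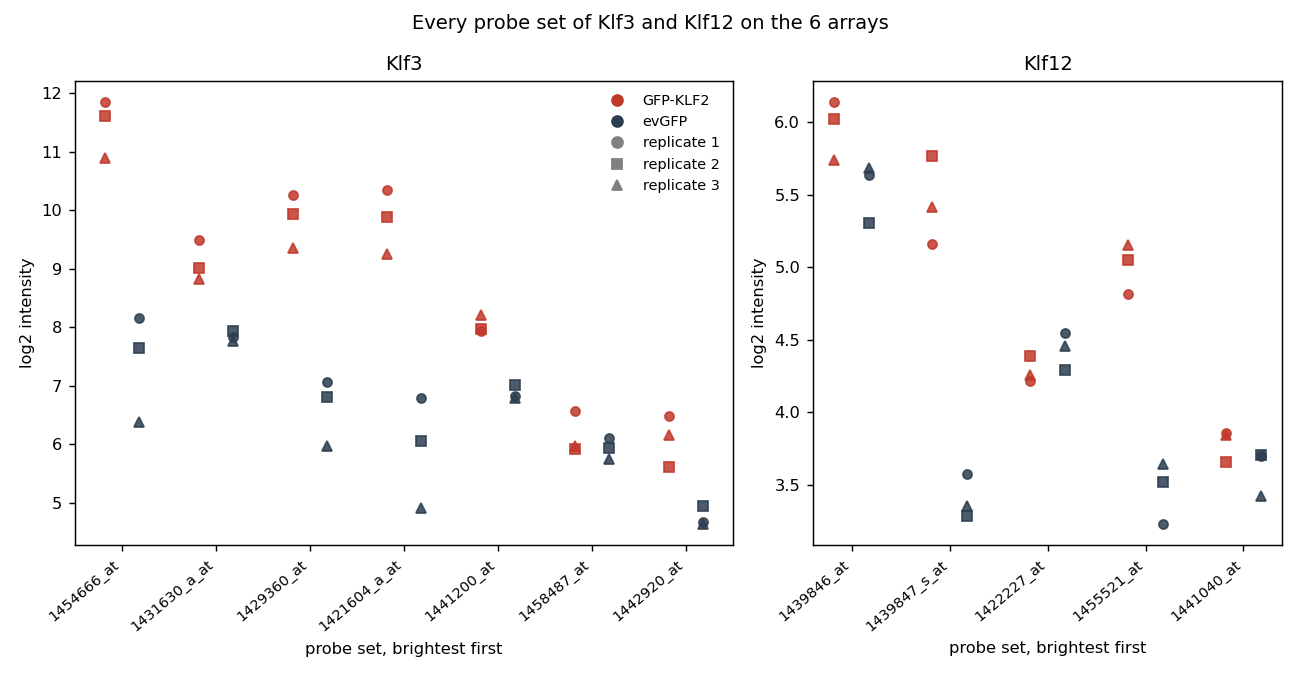
Log2 intensity of every probe set of Klf3 (left) and Klf12 (right) on the 6 arrays, ordered by mean over all arrays, with GFP-KLF2 CTL in red and evGFP CTL in dark blue. Symbols give the replicate number. Klf3 probe set 1458487_at and Klf12 probe sets 1422227_at and 1441040_at overlapped between groups, whereas 1439847_s_at measured 5.16 to 5.76 in GFP-KLF2 CTL and 3.29 to 3.57 in evGFP CTL.

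Klf12, the other measured member that binds CtBP and a known repressor of the AP-2 alpha gene, passed by 2 of its 5 probe sets. Its brightest probe set, 1439846_at, measured 6.14, 6.02 and 5.74 log2 units in GFP-KLF2 CTL, against 5.64, 5.31 and 5.69 in evGFP CTL. These groups did not overlap but came close to each other, and the log2 fold change of 0.42 (SE 0.14, 95% confidence interval 0.10 to 0.75, limma adjusted p = 0.103) did not pass. Probe set 1439847_s_at measured 5.16, 5.76 and 5.42 in GFP-KLF2 CTL, against 3.57, 3.29 and 3.35 in evGFP CTL, a log2 fold change of 2.04 (SE 0.16, limma adjusted p = 0.000834). Probe set 1455521_at measured 4.81, 5.05 and 5.16 in GFP-KLF2 CTL, against 3.23, 3.52 and 3.65 in evGFP CTL, a log2 fold change of 1.54 (SE 0.13, limma adjusted p = 0.00122). Their evGFP values lie below the lower quartile of the arrays (4.18 to 4.25), so that the size of these rises is not well measured. With a pseudocount of 16 added before log2 the log2 fold changes were 1.17 for 1439847_s_at (limma adjusted p = 0.00314) and 0.83 for 1455521_at (limma adjusted p = 0.00276). For the same reason the differences in rise from the brightest probe set depend on the pseudocount, at -1.62 for 1439847_s_at (limma adjusted p = 0.0122) and -0.84 with it (0.0245), and at -1.12 for 1455521_at (0.04996) and -0.51 with it (0.108). The remaining probe sets, 1422227_at and 1441040_at, had log2 fold changes of -0.15 and 0.18 and did not pass.

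Klf9, Klf13 and Klf16 encode repressors that recruit Sin3. Klf9, known as a target of glucocorticoid and thyroid hormone receptors, measured 9.75, 10.14 and 10.03 log2 units at its brightest probe set, 1456341_a_at, in GFP-KLF2 CTL, against 8.52, 8.69 and 8.82 in evGFP CTL. All 3 GFP-KLF2 arrays were above all evGFP arrays, with a log2 fold change of 1.29 (SE 0.13, 95% confidence interval 1.00 to 1.59, limma adjusted p = 0.00174), or 2.45-fold. Of its 7 probe sets 5 rose, with log2 fold changes of 0.96 to 1.37. The exceptions were 1436952_at, at 6.45, 6.49 and 6.68 log2 units in GFP-KLF2 CTL, against 6.26, 6.37 and 6.21 in evGFP CTL (log2 fold change 0.26, limma adjusted p = 0.130), and 1452723_at, at 4.53, 4.38 and 4.17 in GFP-KLF2 CTL, against 4.38, 4.39 and 4.18 in evGFP CTL (log2 fold change 0.04, limma adjusted p = 0.876). The brightest probe set rose more than each of these, by 1.04 log2 units (limma adjusted p = 0.0132) and by 1.25 (limma adjusted p = 0.0235). Probe set 1452723_at lay near the lower quartile on all arrays, at 4.17 to 4.53, so that the size of the last difference is not well measured.

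Klf13, which in human T cells drives late expression of the chemokine CCL5, measured 10.96, 10.73 and 10.78 log2 units at 1436316_at in GFP-KLF2 CTL, against 10.14, 10.28 and 10.18 in evGFP CTL. The arrays of each group lay close together and the groups did not overlap. The log2 fold change was 0.63 (SE 0.09, 95% confidence interval 0.42 to 0.84, limma adjusted p = 0.00654), or 1.54-fold, and that of 1432543_a_at was 0.74 (limma adjusted p = 0.00260). Probe set 1456030_at, at 5.32 to 5.43 log2 units in GFP-KLF2 CTL and 5.34 to 5.47 in evGFP CTL, did not pass (log2 fold change -0.04, limma adjusted p = 0.817), and the brightest probe set rose more than it by 0.67 (limma adjusted p = 0.0219). Probe set 1456030_at lay below the array medians of 5.64 to 5.67, so that the size of this difference is not well measured.

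Klf16 measured 9.40, 9.70 and 9.45 log2 units in GFP-KLF2 CTL, against 9.16, 9.12 and 9.06 in evGFP CTL. Its groups did not overlap, but the pair of replicate 1 differed by only 0.24. The log2 fold change of 0.40 (SE 0.10, 95% confidence interval 0.17 to 0.63, limma adjusted p = 0.0385), or 1.32-fold, was the smallest among the members that rose at their brightest probe set. It did not pass when any 1 of the 6 arrays was left out (limma adjusted p = 0.0600 to 0.111).

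Klf10 and Klf11 encode the TGF-beta inducible early factors, repressors that also recruit Sin3. Klf10 measured 9.83, 9.55 and 9.94 log2 units in GFP-KLF2 CTL, against 7.64, 8.40 and 8.83 in evGFP CTL. The GFP-KLF2 arrays lay together, at a mean of 9.77 ± 0.20, while the evGFP arrays spread around 8.29 ± 0.60 (SD, n = 3 each). The log2 fold change was 1.48 (SE 0.28, 95% confidence interval 0.84 to 2.12, limma adjusted p = 0.0156), or 2.79-fold. It did not pass without evGFP replicate 2 (limma adjusted p = 0.0534) or without GFP-KLF2 replicate 1 (limma adjusted p = 0.0565). Klf11 measured 8.42, 8.13 and 8.35 log2 units in GFP-KLF2 CTL, against 6.48, 6.77 and 7.09 in evGFP CTL, a log2 fold change of 1.52 (SE 0.16, 95% confidence interval 1.15 to 1.89, limma adjusted p = 0.00215), or 2.87-fold. For both genes the pair of replicate 1 differed most, by 2.19 for Klf10 and 1.94 for Klf11, and evGFP replicate 1 was the lowest array.

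Klf6 and Klf7 encode closely related factors found in many tissues. Klf6, an early response gene, measured 11.27, 11.50 and 11.37 log2 units at 1433508_at in GFP-KLF2 CTL, against 10.67, 10.73 and 10.70 in evGFP CTL. The evGFP arrays were nearly alike, and all GFP-KLF2 arrays were above them. The log2 fold change was 0.68 (SE 0.08, 95% confidence interval 0.49 to 0.88, limma adjusted p = 0.00371), or 1.605-fold. All 5 Klf6 probe sets rose, with log2 fold changes of 0.64 to 0.85, and the 4 differences between the brightest and another did not pass, at -0.16 to 0.04 log2 units. The rise of 1459718_x_at, the dimmest of the 5, did not pass without evGFP replicate 2 (limma adjusted p = 0.0571).

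Klf7 measured 9.54, 9.82 and 9.78 log2 units at 1419354_at in GFP-KLF2 CTL, against 10.12, 9.93 and 9.57 in evGFP CTL. The groups overlapped, and the difference within pairs was -0.58, -0.10 and 0.21. The log2 fold change of -0.16 did not pass (SE 0.15, 95% confidence interval -0.51 to 0.19, limma adjusted p = 0.600). Neither did those of its other probe sets, at -0.17 to -0.08. The interval does not reach the log2 fold change of Klf6, but the difference between these genes was not tested.

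**Figure D3:**
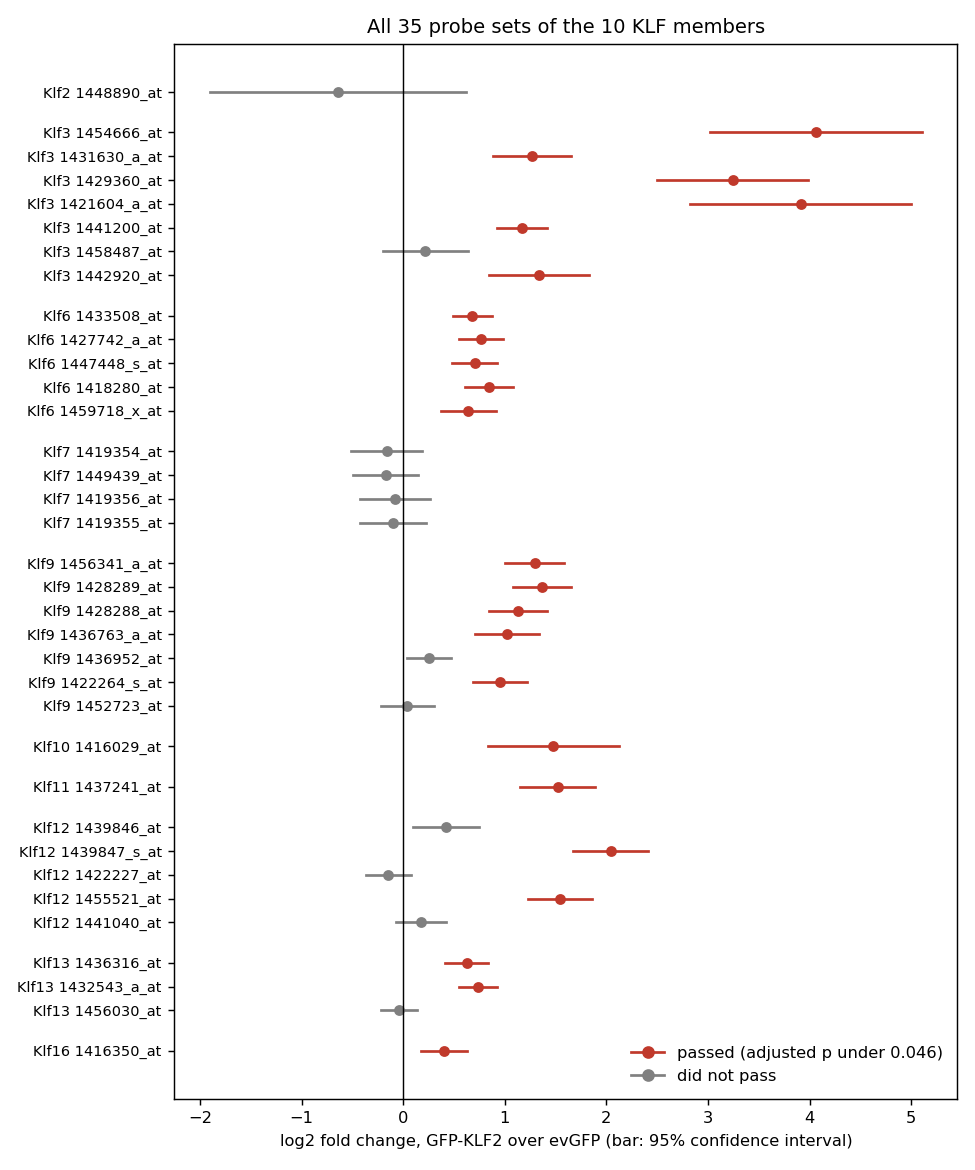
Log2 fold change of GFP-KLF2 over evGFP CTL for all 35 probe sets of the members, grouped by gene and ordered by mean level within a gene, with 95% confidence intervals (n = 3 arrays per group). Red marks the 23 that passed and grey the 12 that did not. The probe sets of Klf6 lie together at 0.64 to 0.85, while those of Klf3 run from 0.22 to 4.06.

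**Figure D4:**
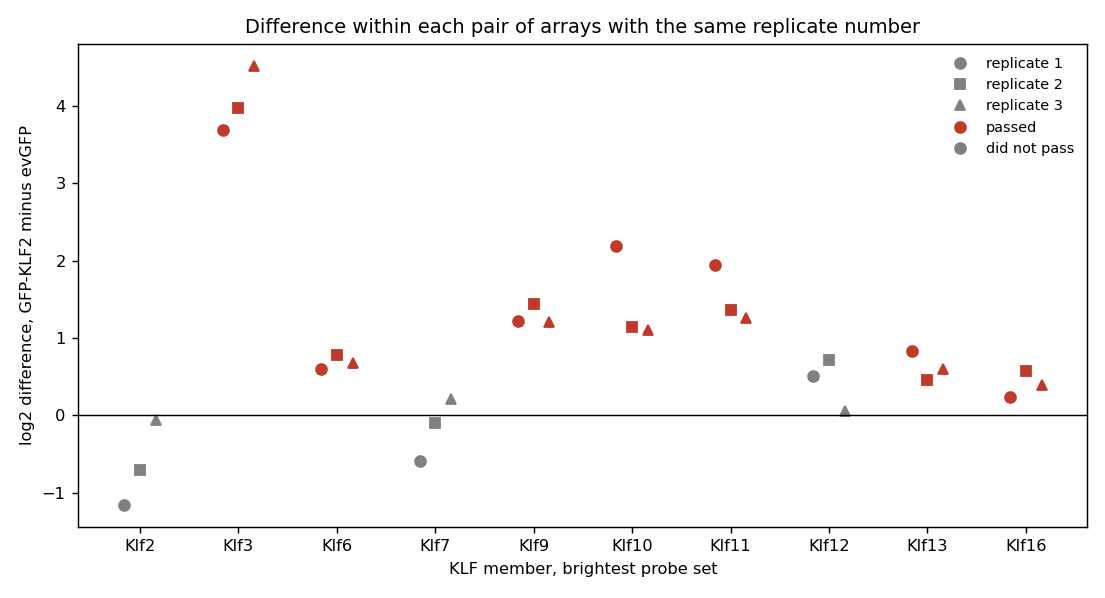
Log2 difference between the GFP-KLF2 and the evGFP array of the same replicate number, for the brightest probe set of each member. Symbols give the replicate number, red marks members that passed and grey those that did not. For Klf2 the 3 differences ran from -1.16 to -0.06 and for Klf3 from 3.69 to 4.52.

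The remaining KLF genes were read from a list of 7, of which 6 had a probe set of their own. These 6 did not pass by limma, with 1 higher at unadjusted p under 0.05, which was Klf5, also with the replicate block. Klf4, which restrains proliferation of CD8 T cells, measured 5.03, 5.42 and 4.98 log2 units in GFP-KLF2 CTL, against 4.95, 4.87 and 4.91 in evGFP CTL (log2 fold change 0.23, 95% confidence interval -0.05 to 0.52, limma adjusted p = 0.308). Klf5, known for its part in epithelial growth, had a log2 fold change of 0.31 (95% confidence interval 0.05 to 0.56, limma adjusted p = 0.126). Its 2 other probe sets stood at -0.01 and 0.05 and did not pass, and the mean of its probe sets gave 0.11 (limma adjusted p = 0.380). Klf1, the erythroid factor, and Klf17 both stood at 0.08, Klf14 at -0.01 and Klf15 at -0.10. Apart from Klf14, at 6.26 to 6.60 log2 units, all of these lay under 6 on every array. The median log2 fold change of the 6 was 0.08, beside 0.65 for the members. The members were chosen with earlier results of these data known, and most of the 6 were dim, so this contrast is only a description.

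The SP factors share the zinc finger fold and GC-box binding of the KLF family. Of 7 measured, 2 rose, 1 fell and 4 did not pass, with a median log2 fold change of 0.06. Over all genes 6.22% rose and 8.35% fell, and counts in a list this short are only a description. Sp4 measured 10.17, 10.52 and 10.08 log2 units in GFP-KLF2 CTL, against 8.27, 8.94 and 8.77 in evGFP CTL, with no overlap. Its log2 fold change was 1.599 (SE 0.19, limma adjusted p = 0.00327), and its other probe set also rose, by 1.39. Sp3, which can activate or repress, rose by 0.33 (limma adjusted p = 0.0459), and Sp1, the widely expressed activator, fell by 0.34 (limma adjusted p = 0.0364). The calls of Sp3 (limma adjusted p = 0.0634 to 0.136) and Sp1 (0.0470 to 0.114) were lost when any 1 array was left out. Of the 2 other Sp1 probe sets 1 fell.

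Among 12 cofactors that KLF proteins bind, with their complex partners, 2 rose, 1 fell and 9 did not pass, with a median log2 fold change of -0.12. These counts stand beside 6.22% of all genes that rose and 8.35% that fell, and do not set the list apart. The shares over all genes with the replicate block, used below, are not given here. Ep300, the acetyltransferase p300, rose, with 10.91, 11.11 and 11.004 log2 units in GFP-KLF2 CTL, against 10.40, 10.42 and 10.32 in evGFP CTL (log2 fold change 0.63, SE 0.08, limma adjusted p = 0.00460). Sin3b, a scaffold of the Sin3 complex, rose by 0.37 (limma adjusted p = 0.0389), a call lost when any 1 array was left out (0.0540 to 0.120). Hdac2, a deacetylase of that complex, fell by 0.49 (limma adjusted p = 0.0131), which did not pass without evGFP replicate 2 (0.0549) or GFP-KLF2 replicate 1 (0.0468). With the replicate number as a block 4 rose and 3 fell, the additions being Ctbp2 (log2 fold change 1.00, limma adjusted p = 0.0327 against 0.0601 without the block), Kat2b (0.37, 0.0362 against 0.0560), Hdac3 (-0.32, 0.0322 against 0.0572) and Kdm1a (-0.30, 0.0428 against 0.0476). Ctbp2 encodes a corepressor that KLF3 and KLF12 bind, and measured 7.10, 7.61 and 6.72 log2 units in GFP-KLF2 CTL, against 5.62, 6.32 and 6.49 in evGFP CTL. Ctbp1, its relative, had a log2 fold change of -0.24 and did not pass (limma adjusted p = 0.0776). In the fit without the block, 3 of the 4 other Sin3b probe sets rose. There 1 of the 2 others of Hdac2 and the 1 other of Kdm1a (log2 fold change -0.36) fell, while those of Ctbp2 and Kat2b did not pass.

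Of 11 genes known to regulate KLF2 expression or stability, 3 rose, 1 fell and 7 did not pass, with a median log2 fold change of 0.05. The shares over all genes were 6.22% that rose and 8.35% that fell, and the list is short. Foxo1, which binds and activates the Klf2 promoter in T cells, measured 10.83, 10.77 and 10.58 log2 units in GFP-KLF2 CTL, against 9.91, 9.80 and 9.80 in evGFP CTL. Its groups were far apart relative to their spread, with a log2 fold change of 0.89 (SE 0.09, limma adjusted p = 0.00202), and 2 of its 3 other probe sets also rose. Fbxw7, a ubiquitin ligase subunit that targets KLF2 for degradation, rose by 0.87 (SE 0.10, limma adjusted p = 0.00269). Mef2d, of the MEF2 factors that act on the Klf2 promoter in endothelial cells, rose by 0.74 (limma adjusted p = 0.0141), which did not pass without evGFP replicate 1 (0.0519) or 2 (0.0581). Foxo3 fell by 0.40 (limma adjusted p = 0.0398), and 5 of the 6 fits with 1 array left out did not pass, up to 0.124. Among the 7 that did not pass at their brightest probe set, a dimmer probe set fell for Map2k5 (1 of 3) and for Wwp1 (1 of 2), with log2 fold changes down to -0.65 and -0.54. With the mean of all probe sets 3 regulators rose and 2 fell.

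The last list held 10 genes known from other work as direct targets of a member, of which 9 were measured. Of these 5 rose and 4 did not pass, with a median log2 fold change of 0.65, beside 6.22% of all genes that rose and 8.35% that fell. S1pr1, the receptor S1P1 and a KLF2 target, measured 9.49, 9.46 and 9.53 log2 units in GFP-KLF2 CTL, against 7.62, 7.79 and 7.06 in evGFP CTL (log2 fold change 2.00, SE 0.18, limma adjusted p = 0.00125). The GFP-KLF2 arrays were nearly alike and all above the evGFP arrays. Lgals3, the galectin-3 gene and a target that KLF3 represses in mouse, rose by 1.69 (SE 0.24, limma adjusted p = 0.00634), with 14.17, 14.50 and 14.54 log2 units in GFP-KLF2 CTL, against 12.13, 12.96 and 13.07 in evGFP CTL. Its rise stands beside that of Klf3, while C1qtnf12, also repressed by KLF3 in mouse, had a log2 fold change of 0.17 and did not pass (limma adjusted p = 0.611). Ccl5, the KLF13 target, measured 12.13, 12.26 and 10.88 in GFP-KLF2 CTL, against 10.37, 9.98 and 9.41 in evGFP CTL (log2 fold change 1.84, SE 0.39, limma adjusted p = 0.0237), lowest in replicate 3 of each group. Its call was lost in 4 of 6 fits with 1 array left out, at 0.0599 to 0.0819.

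Smad7, the inhibitor of TGF-beta signalling that KLF10 represses, rose by 0.97 (SE 0.10, limma adjusted p = 0.00205), with 9.35, 9.52 and 9.58 log2 units in GFP-KLF2 CTL, against 8.37, 8.58 and 8.60 in evGFP CTL. Cdkn1a, the cell cycle inhibitor p21, falls outside the rule for named genes and was named after its values were seen. It rose by 0.65 (SE 0.15, limma adjusted p = 0.0355), a call lost in 5 of 6 fits with 1 array left out, up to 0.109. Its 1 other probe set rose by 0.70. The study reports that its microarray results showed no regulation of p21 by KLF2. It required a change of at least 2-fold, which Cdkn1a does not reach and which is not a condition of the call here. Tfap2a, the AP-2 alpha gene that KLF12 represses, had a log2 fold change of 0.09, Tgfb1 of -0.14 and Foxp3 of 0.19, and these did not pass.

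**Figure D5:**
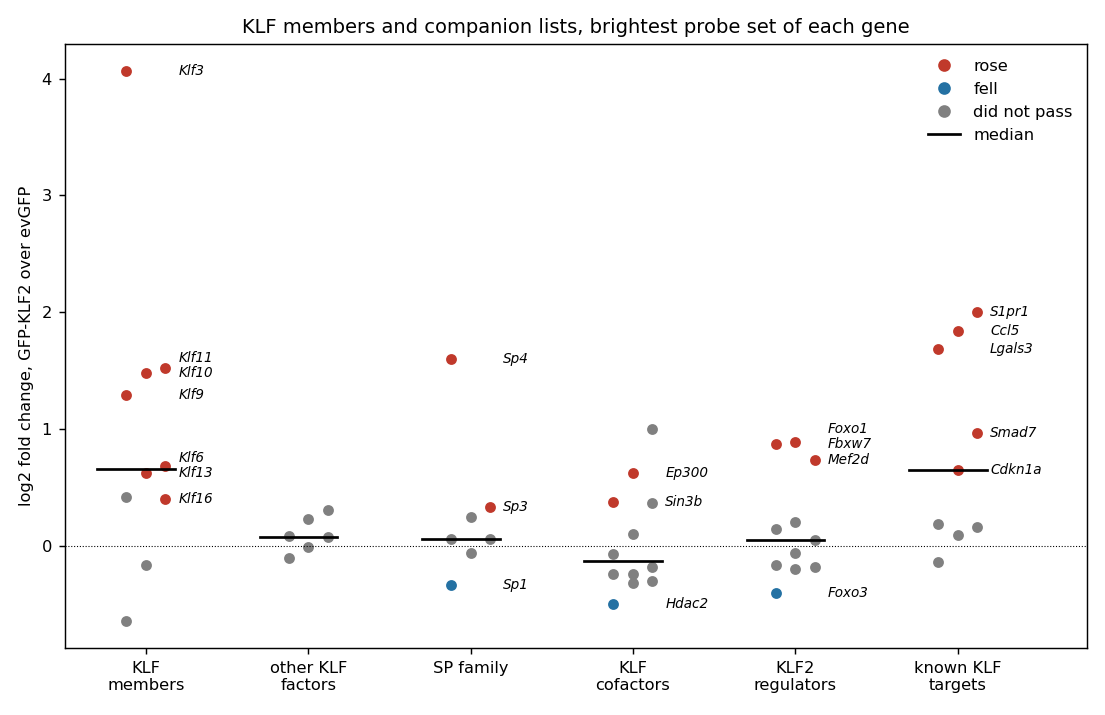
Log2 fold change of GFP-KLF2 over evGFP CTL at the brightest probe set of each KLF member and of each gene of the 5 other lists. Red marks genes that rose, blue those that fell and grey those that did not pass, and bars give the median of a list. The members have a median of 0.65, with Klf3 at 4.06, and the other KLF factors a median of 0.08. Members and lists were chosen with earlier results of these data known.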

How the data were processed

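RNA was measured on 6 arrays, 3 of GFP-KLF2 and 3 of evGFP transduced CTL, grouped and numbered by their labels. The authors made the deposited intensity values with RMA, which corrects the background, makes the distributions of the arrays equal and summarises the probes of a set, gave them on a linear scale, and used limma for their test. Versions of these tools are not given in the sources used here. Log2 was taken of the deposited intensities. After removal of 64 control probe sets, 45037 of 45101 probe sets were fitted with limma 3.58.1 (R 4.3.3), with a mean for each group and variances moderated across probe sets, by 2-sided tests with Benjamini-Hochberg adjustment over all of them. The methods print the threshold as 0.046% and 2 sigma, and 0.046 was used here. Of the probe sets, 34945 are annotated to 1 gene, 932 to several and 9160 to none in GEO's platform annotation. A gene is represented by its brightest probe set, by mean over all arrays. Adjusted p in the text are from this fit unless the replicate block, an array left out or a difference between probe sets is named.

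Members and gene lists were chosen with earlier results of these data known, so that counts over them are descriptions. Named were all members, the other KLF factors, up to 4 genes per list that passed with the largest change, and the 5 genes with a mean of at least 6 log2 units most like Klf2. Other genes of the lists were named to complete a list, after their values were seen.

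Arrays with the same replicate number deviated together from their group means (Pearson's r over probe sets 0.325, 0.442 and 0.466, against -0.38 to 0.06 for other pairings between groups). Deviations within a group cancel out over its arrays, so positive r for like numbers lower the other r, which are no independent baseline. The main fit ignores the numbers. They were taken to pair the arrays in an alternative fit, which has the replicate number as a block. The others were 3 adjusted p or fold thresholds, dim probe sets removed, 3 normalizations, a prior that is robust and follows intensity, array weights, a pseudocount of 16, genes as means of their probe sets, probe sets with a cross-hybridisation suffix removed, and fits that lack 1 array. Scripts were tested on simulated data. The number of arrays limits the precision. Promoter motifs were searched in RefSeq windows of GRCm38.p6, and figures were drawn with matplotlib 3.10.9 and pandas 2.3.3.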

Additional observations from a re-analysis of the deposited data

How the results depend on the processing

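No probe set of a member changed direction once it had passed, under any alternative run. With an adjusted p under 0.00046, which 55 of all probe sets passed, the counts of member probe sets, members, SP factors, cofactors, KLF2 regulators and targets that passed were each 0. With at least 2-fold as a further condition they were 14 probe sets, 4 members, 1 SP factor, 0 cofactors, 0 regulators and 3 targets. Cofactors that passed numbered 7 with dim probe sets left out, with an intensity trend and robust prior, with the replicate block and with a pseudocount of 16, 8 with array weights and 6 with the mean of all probe sets. With each array left out in turn the counts were 20 to 22 member probe sets that rose, 0 to 0 that fell, 5 to 6 members, 0 other KLF factors, 1 SP factor, 1 to 3 cofactors, 2 to 4 regulators, 3 to 4 targets and 14 to 18 differences between probe sets with no overlap, where limma passed 8, and 10 with a pseudocount of 16. A group of 2 arrays separates from 3 more easily than 3 from 3, so the range up to 18 differences is partly built in. Apart from the 55 probe sets above, shares over all features under these alternatives are not given here. The counts therefore stand without that background. The replicate block left 23 member probe sets that rose and 0 that fell, and its gains among cofactors are the calls it changed in the lists. Klf12 probe set 1439846_at passed with array weights (log2 fold change 0.56, limma adjusted p = 0.0332), while Cdkn1a did not (0.0604). Sp3 did not pass with median centring (0.0489) or quantile normalization (0.0483), Sp1 (0.107) and Foxo3 (0.112) with cyclic loess, or Ccl5 with the trend and robust prior (0.0669). Some values near 0 that had not passed changed sign: Klf7 1419356_at with cyclic loess (0.018), Klf14 with cyclic loess (0.015) and array weights (0.053), Klf17 with the mean of its probe sets (-0.0014) and, with 1 array left out, Klf7 1419355_at (-0.21 to 0.0088), Klf7 1419356_at (-0.19 to 0.038), Klf9 1452723_at (-0.042 to 0.14), Klf14 (-0.088 to 0.084) and Klf15 (-0.24 to 0.014). The cause of these changes was not tested. Signal over background limits what dim probe sets show: 9 member probe sets had a mean under 6 log2 units, and 4 of them rose.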
